A study of Mus musculus with 3 samples.

Results

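The genes described here are those of MHC class I and class II antigen presentation and their transactivators. They are 10 genes taken by name from the 54532 genes listed in each library: the class I heavy chains H2-K1 and H2-D1 with their light chain B2m, the peptide transporter Tap1 and Tap2, the class II chains H2-Aa and H2-Ab1 with the invariant chain Cd74, and the transactivators Nlrc5 and Ciita. All 10 had reads in at least one library and passed the filter on low values, a mean of at least 10 CPM (recovered reads scaled to library size) over the 3 libraries. RNA came from the dura mater, the tough outer layer of the meninges, in a dural metastasis model made by inoculating mice with 4T1-DM cells (4T1 being a mammary carcinoma line of mouse). The mice had received ZOL+Ang2, ZOL or PBS, names the labels do not expand. Dorsal dura was digested 12 days after inoculation, and cells labelled CD45-CD31+PDPN+ (PDPN is podoplanin), as lymphatic endothelial cells would be, were pooled from 6 mice per group. Each group was therefore 1 library, so no test was possible, and no value carries the spread between animals. The sources used here give neither the strain nor the age of the mice.

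The libraries differed in depth and in make-up. Recovered reads came to 9204901 in ZOL+Ang2, 16586760 in ZOL and 1675532 in PBS, so PBS values were the least precise. Of 1384 genes at 100 CPM or more in both ZOL+Ang2 and ZOL, 88 had no reads in PBS, so low read numbers there need not mean absent transcripts. Of the sorted markers, Pdpn stood at 171, 67.5 and 18.8 CPM in ZOL+Ang2, ZOL and PBS, and Pecam1, which encodes CD31, at 177, 475 and 1.08 CPM. The other 9 pan-endothelial markers had reads in every library, Flt1 at 532, 459 and 465 CPM among them. Each library had reads of 5 of the 7 lymphatic markers, Pdpn included. The defining markers Lyve1 (0 reads in each library) and Prox1 (0, 0 and 2 reads in ZOL+Ang2, ZOL and PBS) were close to absent, Flt4 stood at 23.8, 70.9 and 0.538 CPM, and Mmrn1 at 12.0, 11.5 and 155 CPM. Endothelial transcripts were thus present in all libraries, with Pecam1 near 0 in PBS and Prox1 and Lyve1 near or at 0 throughout. Ptprc, which encodes CD45, stood at 76.1, 25.1 and 156 CPM in the same libraries. In bulk RNA, fewer cells of a type and less RNA per cell cannot be told apart.

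Class I molecules, a heavy chain paired with beta-2 microglobulin, show peptides from the cytosol to CD8 T cells. The TAP transporter moves those peptides into the endoplasmic reticulum. Class II molecules, an alpha and a beta chain first assembled on the invariant chain, show peptides from the endosomal route to CD4 T cells. NLRC5 and CIITA are related proteins that do not bind DNA themselves. They act on class I and class II genes, in that order, by docking on factors (RFX, CREB and NF-Y) assembled on a conserved stretch of the promoter with X and Y boxes. Interferon-gamma induces both pathways, in part through IRF1. Endothelial cells carry class I at rest and can be induced to carry class II.

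The promoters of the genes that NLRC5 and CIITA act on are shown because these boxes are what the transactivators depend on. RefSeq windows (GRCm38.p6), 250 bases before to 50 after a gene's start, were at hand for 5 of the 10 genes, H2-K1, H2-D1, B2m, H2-Aa and Tap1. Capitals mark TGACG (the core of the X2 box, bound by CREB-family factors), CCAAT (the Y box core, bound by NF-Y) and AANNGAAA (the core bound by IRF factors), each on either strand. In H2-Aa the TGACG matches on both strands overlap in 1 palindrome.

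H2-K1 (chr17:34000298-34000597, minus strand): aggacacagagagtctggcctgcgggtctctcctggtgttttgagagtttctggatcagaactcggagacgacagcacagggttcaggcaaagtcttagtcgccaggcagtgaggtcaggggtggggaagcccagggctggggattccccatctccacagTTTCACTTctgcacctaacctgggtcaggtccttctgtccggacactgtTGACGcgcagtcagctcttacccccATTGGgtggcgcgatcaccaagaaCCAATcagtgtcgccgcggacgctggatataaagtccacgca

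H2-D1 (chr17:35262844-35263143, plus strand): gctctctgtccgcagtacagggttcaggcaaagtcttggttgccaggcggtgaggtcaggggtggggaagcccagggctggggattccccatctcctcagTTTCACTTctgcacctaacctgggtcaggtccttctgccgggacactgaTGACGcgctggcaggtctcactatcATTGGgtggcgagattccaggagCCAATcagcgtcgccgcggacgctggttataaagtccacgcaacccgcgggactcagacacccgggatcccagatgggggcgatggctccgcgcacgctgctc

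B2m (chr2:122147437-122147736, plus strand): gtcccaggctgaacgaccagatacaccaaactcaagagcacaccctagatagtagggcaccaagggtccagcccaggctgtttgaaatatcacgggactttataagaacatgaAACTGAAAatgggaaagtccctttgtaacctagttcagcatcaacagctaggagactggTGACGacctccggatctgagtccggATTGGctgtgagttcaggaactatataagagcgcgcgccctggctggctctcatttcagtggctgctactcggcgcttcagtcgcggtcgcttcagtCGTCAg

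H2-Aa (chr17:34287774-34288073, minus strand): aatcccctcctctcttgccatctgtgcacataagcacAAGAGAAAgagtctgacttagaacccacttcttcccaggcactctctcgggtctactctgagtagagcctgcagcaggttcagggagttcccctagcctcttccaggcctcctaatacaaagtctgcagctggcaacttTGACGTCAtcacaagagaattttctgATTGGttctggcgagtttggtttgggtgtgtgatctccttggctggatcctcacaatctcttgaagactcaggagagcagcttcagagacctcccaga

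Tap1 (chr17:34187306-34187605, plus strand): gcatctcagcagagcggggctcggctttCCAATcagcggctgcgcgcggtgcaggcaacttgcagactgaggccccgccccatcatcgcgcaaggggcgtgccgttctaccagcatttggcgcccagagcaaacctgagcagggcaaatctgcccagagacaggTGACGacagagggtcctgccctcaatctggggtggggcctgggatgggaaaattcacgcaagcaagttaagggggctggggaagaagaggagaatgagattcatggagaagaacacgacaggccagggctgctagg

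In H2-K1, H2-D1 and B2m the first base of TGACG lay 25 bases before the first base of ATTGG, the reverse complement of CCAAT, and in H2-Aa it lay 26 bases before it. An arrangement of TGACG and ATTGG at 25 or 26 bases, on either strand, was present in 54 of 32851 promoter windows (0.164%), and the Tap1 window did not hold it. This spacing was chosen after the windows were seen. Among the other antigen presentation lists, 1 of the 11 further class I genes with a window, H2-M3, held it too. With a window, 0 of 7 other class II chains and 0 of 5 peptide loading genes held it. The same was true of 0 of 4 genes of class II processing and turnover and 0 of 5 immunoproteasome genes. Singly the motifs were common, with CCAAT in 37.4%, TGACG in 20.8% and AANNGAAA in 23.9% of all windows. A match describes letters in a window and not a bound factor.

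The class I chains were among the most abundant transcripts of every library and differed little between ZOL+Ang2 and ZOL. B2m (ENSMUSG00000060802; chromosome 2, 122147686 to 122153083) stood at 3105 CPM in ZOL+Ang2, 2885 in ZOL and 1012 in PBS. H2-D1 (ENSMUSG00000073411; chromosome 17, 35262730 to 35267499) had 2938 CPM in ZOL+Ang2, 4307 in ZOL and 1146 in PBS. H2-K1 (ENSMUSG00000061232; chromosome 17, 33996017 to 34000347) had 842 CPM in ZOL+Ang2, 1205 in ZOL and 322 in PBS. All 3 were lowest in PBS, and only B2m was not highest in ZOL. Ranked by reads per kilobase among genes with reads, B2m was 11th of 15713 genes in ZOL+Ang2, 6th of 18592 in ZOL and 20th of 16142 in PBS.

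In ZOL+Ang2 against ZOL, H2-D1 was 1.47-fold lower (95% counting interval 1.45 to 1.49), H2-K1 1.43-fold lower (1.39 to 1.47) and B2m 1.08-fold higher (1.06 to 1.09). In ZOL against PBS the same genes were 3.76-fold (3.60 to 3.92), 3.74-fold (3.45 to 4.06) and 2.85-fold higher (2.72 to 2.99). The intervals are exact binomial ones given both libraries' reads, and cover counting error only. The heavy chains kept a near constant proportion. Per kilobase, H2-D1 exceeded H2-K1 by 3.97-fold in ZOL+Ang2 (3.87 to 4.08), 4.07-fold in ZOL (4.01 to 4.14) and 4.05-fold in PBS (3.70 to 4.44), a ratio that needs no scaling between libraries, and the intervals overlapped. Heavy chains are uncertain as separate genes, since 9.63% of the 50-base windows of H2-K1 transcripts and 12.8% of those of H2-D1 also occur in other genes, mainly each other and the H2-Q genes. MHC genes are also highly polymorphic. Reads were aligned to mm10, the C57BL/6J genome, and what this did to the levels was not tested.

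**Figure D1:**
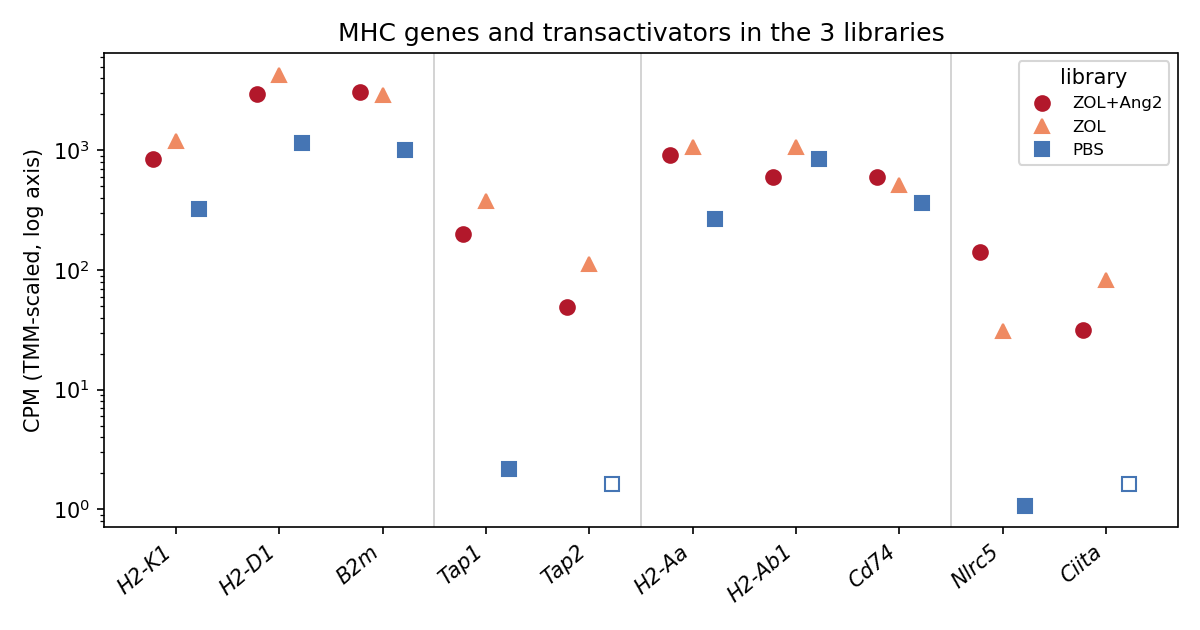
CPM (TMM-scaled, log axis) of the 10 genes in the ZOL+Ang2, ZOL and PBS libraries, 1 point per library; open squares stand at the floor of 3 reads (1.61 CPM in PBS) where a gene had 0 reads. Tap1, Tap2, Nlrc5 and Ciita are far lower in PBS, whereas the class I and class II chains and Cd74 differ by less than 5-fold between any pair of libraries.

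The transporter did not follow the heavy chains in PBS. Tap1 (ENSMUSG00000037321; chromosome 17, 34187553 to 34197225) stood at 199 CPM in ZOL+Ang2 and 378 in ZOL, with 4 reads (2.15 CPM) in PBS. Tap2 (ENSMUSG00000024339; chromosome 17, 34203527 to 34216321) stood at 49.1 CPM in ZOL+Ang2 and 113 in ZOL, with 0 reads in PBS, where a count of 0 allows up to 1.61 CPM. Both subunits were lower in ZOL+Ang2 than in ZOL, and both were near or at 0 in PBS. The transporter was thus barely sampled in a PBS library that held 2130 reads of H2-D1 and 1880 of B2m.

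Tap1 was 1.90-fold lower (1.80 to 2.01) and Tap2 2.30-fold lower (2.07 to 2.56) in ZOL+Ang2 than in ZOL. In ZOL against PBS, the ratio of Tap1, resting on 4 PBS reads, was 175 (68.5 to 644), and Tap2 was at least 70.0-fold higher against a floor of 3 PBS reads. Per kilobase, Tap1 exceeded Tap2 by 2.79-fold in ZOL+Ang2 (2.51 to 3.11) and 2.31-fold in ZOL (2.19 to 2.44). Psmb9, an immunoproteasome subunit whose gene lies head to head with Tap1 and overlaps it by 212 bases on the other strand, stood at 288, 506 and 56.5 CPM in ZOL+Ang2, ZOL and PBS. Its ratio to Tap1 per kilobase was 2.17 in ZOL+Ang2 (2.04 to 2.31), 2.01 in ZOL (1.94 to 2.07) and 39.3 in PBS (14.9 to 147). The neighbours thus had like proportions in ZOL+Ang2 and ZOL, and a different one in PBS.

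Class II chains were abundant in all 3 libraries, and their proportions differed between libraries. H2-Aa (ENSMUSG00000036594; chromosome 17, 34282744 to 34287823), the alpha chain, stood at 924 CPM in ZOL+Ang2, 1074 in ZOL and 269 in PBS. H2-Ab1 (ENSMUSG00000073421; chromosome 17, 34257689 to 34269419), its beta chain, had 599.9 CPM in ZOL+Ang2, 1066 in ZOL and 846 in PBS. Cd74 (ENSMUSG00000024610; chromosome 18, 60803848 to 60812652), the invariant chain, had 594, 516 and 363 CPM. PBS was lowest for H2-Aa and Cd74, and ZOL+Ang2 was lowest for H2-Ab1.

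In ZOL+Ang2 against ZOL, H2-Aa was 1.16-fold lower (1.13 to 1.19), H2-Ab1 1.78-fold lower (1.72 to 1.83) and Cd74 1.15-fold higher (1.11 to 1.19). In ZOL against PBS, H2-Aa was 4.00-fold higher (3.66 to 4.38), whereas Cd74 and H2-Ab1 lay within 2-fold. The direction of Cd74 and H2-Ab1 in that comparison turned with the scaling: their log2 folds of CPM plus 5 were 0.50 and 0.33 with TMM factors, and -0.36 and -0.53 with median-of-ratios factors. The within-library ratio does not depend on scaling. H2-Ab1 over H2-Aa per kilobase was 0.960 in ZOL+Ang2 (0.928 to 0.995), 1.47 in ZOL (1.44 to 1.50) and 4.66 in PBS (4.21 to 5.16). Cd74 over H2-Aa was 1.46 (1.41 to 1.51), 1.09 (1.06 to 1.12) and 3.06 (2.72 to 3.44) in the same order. Per kilobase, H2-Ab1 over H2-Aa was thus nearest to 1 in ZOL+Ang2 and furthest from it in PBS. Its level within a library rests on the exon lengths used, whereas the order of the libraries does not. In reads, H2-Ab1 and H2-Aa had 5261 and 8101 in ZOL+Ang2, and 16735 and 16858 in ZOL. Equal amounts of the chains in any library were not shown.

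The second class II pair was also present. H2-Eb1, the E beta chain, stood at 848 CPM in ZOL+Ang2, 1501 in ZOL and 799 in PBS. H2-Ea-ps, the E alpha chain, stood at 441, 761 and 220 CPM. The E alpha gene is annotated as a polymorphic pseudogene, and is known not to be transcribed in mice of the b haplotype such as C57BL/6. Both E chains were highest in ZOL, 1.77-fold (H2-Eb1, 1.73 to 1.82) and 1.72-fold (H2-Ea-ps, 1.66 to 1.79) lower in ZOL+Ang2 than in ZOL. E alpha over E beta per kilobase was 0.977 in ZOL+Ang2 (0.940 to 1.02), 0.952 in ZOL (0.931 to 0.973) and 0.517 in PBS (0.462 to 0.577). As with the A pair, the alpha chain was the scarcer of the chains in PBS.

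**Figure D2:**
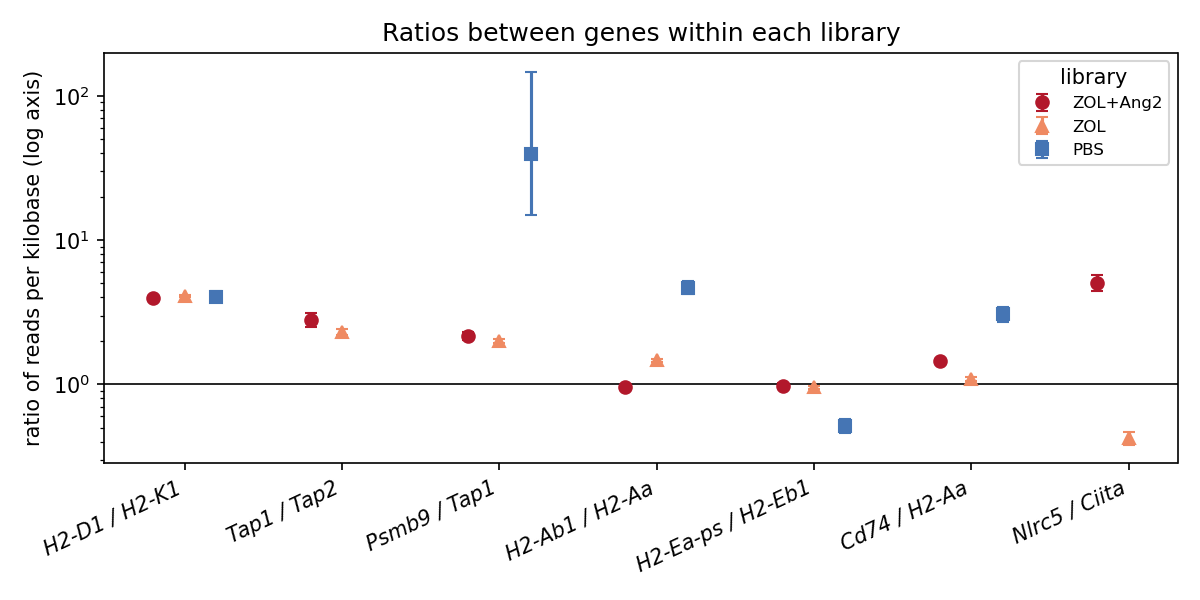
Ratio of reads per kilobase between pairs of genes within each library (log axis), for ZOL+Ang2, ZOL and PBS; bars are exact 95% binomial intervals for counting error, and pairs with a gene at 0 reads in PBS have no PBS point. H2-D1 over H2-K1 is near 4 in all 3 libraries, H2-Ab1 over H2-Aa runs from 0.960 in ZOL+Ang2 to 4.66 in PBS, and Nlrc5 over Ciita lies on opposite sides of 1 in ZOL+Ang2 and ZOL.

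The transactivators went opposite ways between ZOL+Ang2 and ZOL. Nlrc5 (ENSMUSG00000074151; chromosome 8, 94434356 to 94527272) stood at 141 CPM in ZOL+Ang2 and 31.2 in ZOL, with 2 reads (1.08 CPM) in PBS. Ciita (ENSMUSG00000022504; chromosome 16, 10480059 to 10528418) stood at 31.5 CPM in ZOL+Ang2 and 82.6 in ZOL, with 0 reads in PBS. Nlrc5 was thus highest in ZOL+Ang2 and Ciita highest in ZOL, and neither was sampled to any depth in PBS.

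Nlrc5 was 4.51-fold higher (4.06 to 5.02) and Ciita 2.62-fold lower (2.30 to 3.00) in ZOL+Ang2 than in ZOL. Nlrc5 over Ciita per kilobase was 5.02 in ZOL+Ang2 (4.40 to 5.74) and 0.424 in ZOL (0.382 to 0.471). In ZOL against PBS, the ratio of Nlrc5, resting on 2 PBS reads, was 29.0 (7.99 to 240.1), and Ciita was at least 51.1-fold higher against the floor. In ZOL+Ang2 against PBS, Nlrc5 was 131-fold higher (36.1 to 1081) and Ciita at least 19.5-fold higher. Beside the Nlrc5 difference between ZOL+Ang2 and ZOL, H2-K1, H2-D1, B2m and Tap1 lay within 2-fold, B2m being slightly higher and the others lower. Tap2 was 2.30-fold lower (2.07 to 2.56) in ZOL+Ang2. PBS held 1572 reads of H2-Ab1 and 675 of Cd74 beside 0 of Ciita.

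Nlrc5 overlaps a long non-coding gene on the other strand, 9330175E14Rik, by 748 bases of its span. That gene had 314 reads in ZOL+Ang2, 7 in ZOL and 4 in PBS, against 1234, 490 and 2 for Nlrc5, so the pair was high in the same library. Without a stated strand setting their reads cannot be told apart where they overlap, and the part of this gene in the Nlrc5 difference was not tested. Ciita likewise overlaps Dexi, which had 215, 199 and 0 reads in ZOL+Ang2, ZOL and PBS.

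**Figure D3:**
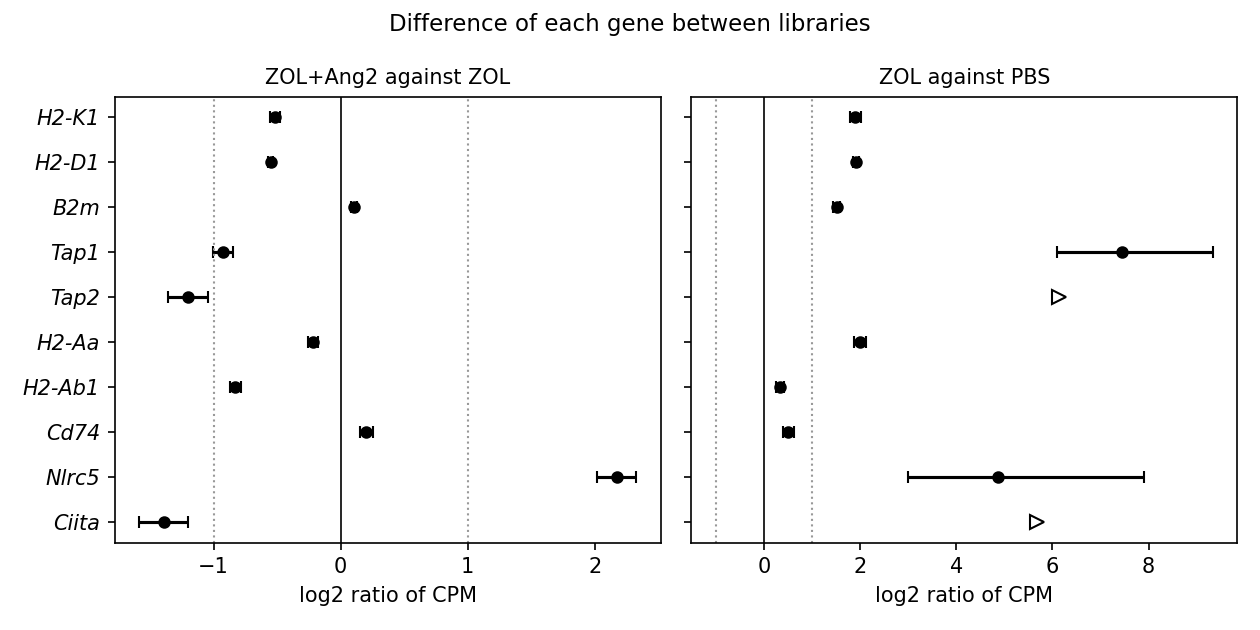
Log2 ratio of CPM for each gene in ZOL+Ang2 against ZOL (left) and ZOL against PBS (right), 1 library per group; bars are exact 95% binomial intervals for counting error, open triangles are lower bounds where PBS had 0 reads, dotted lines mark 2-fold, and the panels have different scales. On the left Nlrc5 stands at 2.17 and Ciita at -1.39 with the other genes between -1.20 and 0.20; on the right all ratios and bounds lie above 0 with TMM factors, whereas Cd74 and H2-Ab1 turn below 0 with median-of-ratios factors.

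Counted over the list, a gene was called where the log2 ratio of CPM plus 5 passed 2-fold. In ZOL+Ang2 against ZOL, 1 of 10 genes was higher (Nlrc5), beside 16.2% of the 10942 genes that passed the filter, and 2 were lower (Tap2 and Ciita), beside 24.8%. The share of the list past 2-fold was thus near or below that of all genes. The median log2 fold of the 10 genes was -0.53, beside -0.02 over all genes. Tap2, at -1.12, came to -0.93 with median-of-ratios factors, which ended its call.

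In ZOL against PBS, 8 of 10 genes were higher, beside 49.2% of all genes, and 0 were lower, beside 29.4%. Their median was 1.94, against 0.94 over all genes. Tap1, Tap2, Nlrc5 and Ciita passed the filter through ZOL+Ang2 and ZOL and could hardly have been higher in PBS. In ZOL+Ang2 against PBS, 8 were higher, beside 44.2%, and 0 lower, beside 33.1%, with a median of 1.69 against 0.48. These comparisons share the PBS library. With RPKM as deposited only Tap1, Tap2, Nlrc5 and Ciita remained 2-fold higher in either of them. Of all genes past 2-fold in ZOL against PBS, 62.6% were higher with TMM factors, 47.3% with median-of-ratios factors and 39.9% with RPKM as deposited, and the median of all genes was 0.94, -0.17 and -0.83. For the class I chains and H2-Aa, a difference from PBS past 2-fold therefore rests on the scaling.

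Among 11 measured class I heavy chain and class I-like genes, shares past 2-fold between ZOL+Ang2 and ZOL were near or below those of all genes. In ZOL+Ang2, 1 was higher, beside 16.2% of all genes (Mr1, which shows metabolites of riboflavin synthesis to T cells, 2.83-fold, 2.27 to 3.53), and 2 were lower, beside 24.8%. With median-of-ratios factors, RPKM as deposited or thinned libraries 0 were higher and 1 was lower. The genes that passed the filter then numbered 10, 10 and 11, so a lost call can come from the filter. The lower genes were H2-Q6 (101 CPM in ZOL+Ang2, 221 in ZOL), which shares 32.0% of its 50-base windows with other genes, and H2-T24 (0 reads against 248). H2-T23, the class I-like Qa-1 heavy chain, stood at 664, 839 and 281 CPM in ZOL+Ang2, ZOL and PBS. H2-M3, with the promoter arrangement above, stood at 81.0 and 123 CPM in ZOL+Ang2 and ZOL and had 0 reads in PBS.

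Of 6 peptide loading genes 0 were higher in ZOL+Ang2 than in ZOL, beside 16.2% of all genes, and 1 was lower, beside 24.8%. That was Tapbpl, the peptide editor TAPBPR, 4.15-fold lower (3.69 to 4.69) at 35.1 CPM in ZOL+Ang2 and 146 in ZOL. Tapbp, which encodes tapasin, stood at 815 and 935 CPM. Among 5 measured other class II chains none passed 2-fold in either direction, beside the same shares of all genes, with a median of -0.82. H2-DMa and H2-DMb2, chains of the peptide exchange factor of class II, stood at 305 and 107 CPM in ZOL+Ang2 and at 552 and 200.2 CPM in ZOL. The immunoproteasome list held no gene past 2-fold in ZOL+Ang2 against ZOL, beside the same shares. All 5 of its genes were past 2-fold higher in ZOL than in PBS, beside 49.2% of all genes. With median-of-ratios factors 4 were, and with RPKM as deposited 2 (Psmb9 and Psme2). The other lists varied in ZOL against PBS. With TMM factors, 3 of 6 peptide loading genes, 2 of 5 other class II chains and 8 of 11 class I-list genes were higher. So were 1 of 6 class II processing genes, 3 of 7 partner genes of the transactivators and 8 of 9 interferon-gamma signalling genes. In the processing and partner lists 1 gene each was lower, beside 29.4% of all genes. Psmb8 stood at 628, 721 and 173 CPM in ZOL+Ang2, ZOL and PBS.

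Of 6 measured genes of class II processing and turnover, 4 were higher in ZOL+Ang2 than in ZOL, beside 16.2% of all genes, and 0 were lower, beside 24.8%. These counts were the same with median-of-ratios factors, RPKM as deposited and thinned libraries. The 4 were the processing genes Ctss and Ifi30 and the ligases March1 and March8. Ctss, the endosomal protease cathepsin S that trims the invariant chain, was 9.13-fold higher (8.40 to 9.94) at 381 CPM in ZOL+Ang2 and 41.7 in ZOL. March8, a membrane ubiquitin ligase, was 7.09-fold higher (6.20 to 8.12). March1, the ligase that turns over class II, had 114 reads in ZOL+Ang2 and 2 in ZOL. Ifi30, a reductase of endosomal disulphide bonds, stood at 175 CPM in ZOL+Ang2 and 48.1 in ZOL. Ctsl, cathepsin L, at 902 and 1121 CPM, and Lgmn, the protease legumain, at 122 and 166 CPM, lay within 2-fold.

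Of 9 measured genes of interferon-gamma signalling, 1 was higher in ZOL+Ang2 than in ZOL, beside 16.2% of all genes, and 4 were lower, beside 24.8%. The higher gene was Socs1, a feedback inhibitor of the pathway (6.79-fold, 5.66 to 8.19). Ifngr1, the ligand-binding receptor chain, stood at 8.78 CPM in ZOL+Ang2 and 72.4 in ZOL. Irf1, an inducer of class I genes and of Ciita, stood at 51.9 CPM in ZOL+Ang2, 228 in ZOL and 173 in PBS. Irf8, a further factor of the family, had 35.2 CPM in ZOL+Ang2, 124 in ZOL and 0 reads in PBS. Ifng itself had 0 reads in each library, which allows up to 0.342, 0.191 and 1.61 CPM. Ciita, Tap2, Irf1, Irf8 and Ifngr1 were thus all past 2-fold lower in ZOL+Ang2, and Nlrc5 and Socs1 past 2-fold higher. Tap2 was not past 2-fold with median-of-ratios factors, and 4 of the 9 interferon-gamma genes lay within 2-fold.

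Of 10 partner genes of the transactivators 7 passed the filter, and Rfx5, Rfxap and Nfya did not. Rfx5, the DNA-binding RFX subunit, had 1 read in ZOL+Ang2, 1 in ZOL and 0 in PBS. Another RFX subunit, Rfxank, stood at 33.4, 23.3 and 95.3 CPM, Creb1 at 24.3, 29.0 and 37.1 CPM and the NF-Y subunit Nfyc at 33.4, 43.7 and 23.7 CPM. Of the 7, 0 were higher in ZOL+Ang2 than in ZOL, beside 16.2% of all genes, and 1 was lower, beside 24.8%. That was Nfyb, an NF-Y subunit (18.9 CPM in ZOL+Ang2, 80.6 in ZOL).

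Markers of cells that carry class II at rest were present, and differed between libraries. H2-Aa, H2-Ab1 and Cd74 summed to 2118 CPM in ZOL+Ang2, 2656 in ZOL and 1478 in PBS with TMM factors, but to 1897, 2076 and 2112 CPM with median-of-ratios factors and to 621, 667 and 1022 RPKM as deposited. The place of PBS in that order thus turned with the scaling, whereas ZOL+Ang2 was below ZOL in each. The 8 macrophage markers summed to 840 CPM in ZOL+Ang2, 13.1 in ZOL and 234 in PBS, with C1qa at 190 CPM in ZOL+Ang2, 0 reads in ZOL and 104 CPM in PBS. In ZOL, Csf1r and Fcgr1 had 0 reads as well, and Cd68 had 0 reads in every library. In PBS, C1qb and Fcgr1 had 0 reads and Csf1r stood at 1.08 CPM. Ctss and Ptprc were higher in ZOL+Ang2 than in ZOL together with the macrophage markers. In PBS the macrophage sum was above that of ZOL and Ptprc was highest, whereas Ctss stood at 20.99 CPM, beside 41.7 in ZOL. With RPKM as deposited, Ctss was 25.63 in PBS and 20.37 in ZOL, so that order turned with the scaling. The part of macrophages in the Ctss difference and in the class II sums was not tested.

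The 8 dendritic cell markers summed to 8.21 CPM in ZOL+Ang2, 38.0 in ZOL and 358 in PBS. In ZOL nearly all of that was Zbtb46 (36.1 CPM), and Itgax, Clec9a and Xcr1 had 0 reads. The 6 B cell markers summed to 21.9, 22.6 and 287 CPM in ZOL+Ang2, ZOL and PBS, of which Ebf1 was all in ZOL+Ang2 and ZOL, and Cd79a had 432 reads in PBS and 0 in the others. The 7 T and NK cell markers summed to 0, 0.637 and 37.1 CPM. In PBS, where H2-Ab1 was highest relative to H2-Aa, Zbtb46 stood at 140 CPM, Clec9a at 104 and Itgax at 72.7. Xcr1 and Cd209a had 0 reads there, and Ccr7 had 4. The part of dendritic cells in the PBS class II reads was not tested.

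Other lists moved with the comparison of ZOL+Ang2 and ZOL. The 10 pan-endothelial markers summed to 1269, 2585 and 1778 CPM in ZOL+Ang2, ZOL and PBS. Of the 10, 7 were past 2-fold lower in ZOL+Ang2 than in ZOL, beside 24.8% of all genes. Past 2-fold higher were 0, beside 16.2%. Ciita and Tap2 were lower in the same direction. The 6 fibroblast markers summed to 10780, 454 and 343 CPM, and the 5 neutrophil markers to 537, 30.5 and 363. The 7 epithelial and carcinoma markers summed to 4561, 4738 and 542 CPM, of which Krt8 held 2057 in ZOL+Ang2, 2451 in ZOL and 165 in PBS, and the 7 lymphatic markers to 218, 170 and 275. The part of any of these cells in the MHC values was not tested.

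**Figure D4:**
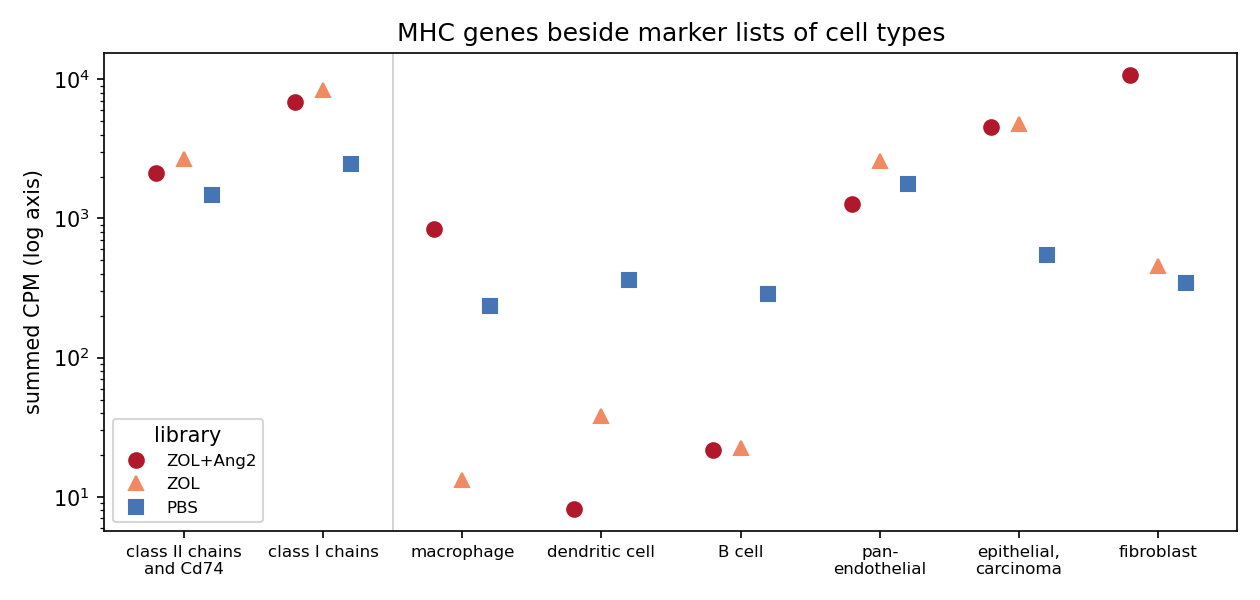
Summed CPM (log axis) of class II genes (H2-Aa, H2-Ab1 and Cd74), class I chains (H2-K1, H2-D1 and B2m) and marker lists of cell types in ZOL+Ang2, ZOL and PBS, 1 point per library. Class II sums lie between 1478 and 2656 CPM with TMM factors, lowest in PBS, which is highest instead with median-of-ratios factors or RPKM as deposited; macrophage sums are 840 CPM in ZOL+Ang2, 13.1 in ZOL and 234 in PBS.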

How the data were processed

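RNA from 3 pools of dural cells, ZOL+Ang2, ZOL and PBS (1 library each), was analysed. Per the labels' protocols, RNA was amplified at full length with a single-cell kit and made into libraries with a TruePrep kit. The authors deposited RPKM values per gene. The submitters' processing notes name mm10, featureCounts 2.0.6, HISAT2 2.2.1 and fastp. The sources used here do not state the annotation release, the strand setting or how reads with several positions were treated.

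Reads were recovered as RPKM times exon length (GENCODE M21) over the value of 1 read in that library. Of values above 0, 96.2% in ZOL+Ang2, 96.4% in ZOL and 96.9% in PBS were whole within 0.01, and 37 genes had no exon length. Values of H2-K1, Cd74, H2-Aa and H2-Ab1 were not whole. Nor were those of, among others, H2-Ea-ps, H2-Eb1, H2-DMa, H2-DMb2, Tapbp, Psmb8, Psmb9 and Csf1r. Reads of these genes are the nearest whole numbers. Their exon length may differ from the authors', so their reads, CPM and interval widths may be off in proportion. Their RPKM ratios do not depend on that length. Over the library totals implied by those steps, the recovered reads were 0.785 in ZOL+Ang2, 0.701 in ZOL and 1.50 in PBS, so RPKM as deposited and CPM scale PBS differently. CPM used TMM factors (0.953 in ZOL+Ang2, 0.946 in ZOL and 1.11 in PBS; trims of 30% and 5%). No molecular identifiers were used, so intervals and floors (3 reads) cover counting error only.

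The steps were tested on simulated reads. Python 3.11.15, NumPy 2.4.6, pandas 2.3.3 and SciPy 1.17.1 were used. The 10 genes and the wider lists were chosen with earlier results of these data known. From each list, the 2 highest and 2 lowest of ZOL+Ang2 against ZOL and of ZOL against PBS could be named (1 gene of the rule is not reported here), with H2-Ea-ps, H2-Eb1, Rfx5, Irf1, Psmb8 and Psmb9; further names (H2-T23, Tapbp, Ifng, marker genes and overlapping genes) were chosen after their values were seen. Other scalings, priors, filters and depths were tried.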

Additional observations from a re-analysis of the deposited data

How the results depend on the processing

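Over 8 alternatives, the number of genes 2-fold higher in ZOL+Ang2 against ZOL stayed at 1. The number lower came to 1 instead of 2 with median-of-ratios factors, with RPKM as deposited, with all libraries thinned to the smallest and with a filter at 50 CPM, which Ciita does not pass. In the first 3 of these, Tap2 no longer passed 2-fold. In ZOL against PBS 8 genes were higher, 7 with median-of-ratios factors or thinning (without B2m), 7 with the 50 CPM filter and 4 with RPKM as deposited. In ZOL+Ang2 against PBS 8 were higher, 5 with median-of-ratios factors, 6 with thinning, 7 with the 50 CPM filter and 4 with RPKM as deposited, and 0 were lower, against 1 (H2-Ab1) with median-of-ratios factors, RPKM as deposited and thinning. No called gene changed sign under any of them, and of 208 single-gene values that have a counting interval 81 moved outside it; the other 32 rest on 0 PBS reads and have none. Sums and wider lists under other scalings were added after seeing the data. Using the 2 libraries of a comparison alone changed no count. Depth limits PBS most, where 1 read is worth more than in the other libraries and Tap2 and Ciita had none.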

Other observations

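Co-stimulatory genes, which antigen-presenting cells need to activate T cells, were sparse, and none of 4 reached a mean of 10 CPM. Cd40 had 0 reads in ZOL+Ang2, 453 (28.9 CPM) in ZOL and 1 in PBS. Cd80 had 99 reads (11.3 CPM) in ZOL+Ang2, 2 in ZOL and 0 in PBS. Cd86 had 0 reads in each library, and Icosl had 0, 6 and 0. Cd40 was thus found in the library where Ciita was highest, and Cd80 where Nlrc5 and the macrophage markers were highest, without a test of either.

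The genes whose profile over the 3 libraries lay nearest to a transactivator, by distance of centred log2 CPM plus 5 among 6831 protein-coding genes averaging 20 CPM or more, were Alpl, Eif2b5 and Msl1 for Nlrc5 (distances 0.09, 0.09 and 0.10) and Mrpl15, Mrpl21 and Sipa1 for Ciita (0.05, 0.06 and 0.06). With 3 points per gene, many genes lie as near.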
